A study of Mus musculus with 3 samples.

Results

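The muscle wall and the mucosa of intact mouse distal colon were compared across all measured genes within 1 Visium library. Visium places a tissue section on an array of barcoded spots and counts each captured polyadenylated transcript once by its unique molecular identifier (UMI). A spot is a small region that can hold several cells of different types, so the classes below are classes of spots and not of cells. The members were thus chosen by measured values: each of the 502 spots was classed by 2 sums of UMIs. The epithelial sum E was taken over Epcam, Krt8, Krt18, Krt19, Cldn7 and Lgals4, and the muscle sum M over Myh11, Actg2, Des, Tagln, Cnn1, Acta2 and Myl9. Spots with M above E and with M at 2% or more of their UMIs were called muscle wall, and spots with E above M and M below 0.5% were called mucosa. The rule placed 226 spots, or 45.02%, in the muscle wall and 202, or 40.24%, in the mucosa. The other 74 spots fell between the classes by this rule, whatever their place in the tissue, 23 with E the larger and 51 with M at or above E.

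The library came from mice labelled Hgfac WT, with no wound. Hgfac encodes a serine protease that activates hepatocyte growth factor, and the study set intact WT colon beside colon at day 2 after wounding in WT and in Hgfac KO mice, with 1714 spots in the 3 libraries. Per the labels, sections were 10 µm thick, the tissue was fresh frozen and 3 biological replicates shared each library. The sources used here give no strain, age or sex. The spots of the intact library formed 3 separate pieces of tissue, but which animal a piece came from is not labelled, so values per piece show the spread within the library and not an error between animals. With 1 library there was no test of any difference. Brackets after a ratio give its exact conditional binomial interval at 95%, which covers counting error only.

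The wall of the colon is built in layers. The mucosa is a sheet of crypts lined by absorptive colonocytes, mucus-secreting goblet cells, hormone cells and, at the base, dividing stem cells, on a bed of connective tissue rich in antibody-secreting plasma cells. Outside it lie the submucosa and the muscularis externa, a circular and a longitudinal layer of smooth muscle. The ganglia of the myenteric plexus lie between the muscle layers and those of the submucosal plexus in the submucosa, and interstitial cells of Cajal (ICC) pace the muscle.

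In pieces 1 and 2 the muscle-wall spots lay along the inner side of a rim of mucosa, and in piece 3 mucosa spots lay at the ends and the edge, as the map of the spot classes shows. The classes were contiguous, with a mean of 4.20 and 3.81 direct neighbours of the same class for a wall and a mucosa spot. Pieces 1, 2 and 3 held 35, 50 and 138 wall spots and 66, 80 and 56 mucosa spots, and 3 wall spots lay outside them. Wall spots were shallower, with a median of 7974 UMIs and 2738.5 genes against 24206.5 UMIs and 5156 genes in mucosa. In all, the wall held 1837664 UMIs and the mucosa 5488427, and mitochondrial genes took 5.90% and 5.41% of them. Values are given as CPM, the UMIs of a gene summed over a class, divided by all UMIs of that class and scaled to 1000000 UMIs.

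**Figure D1:**
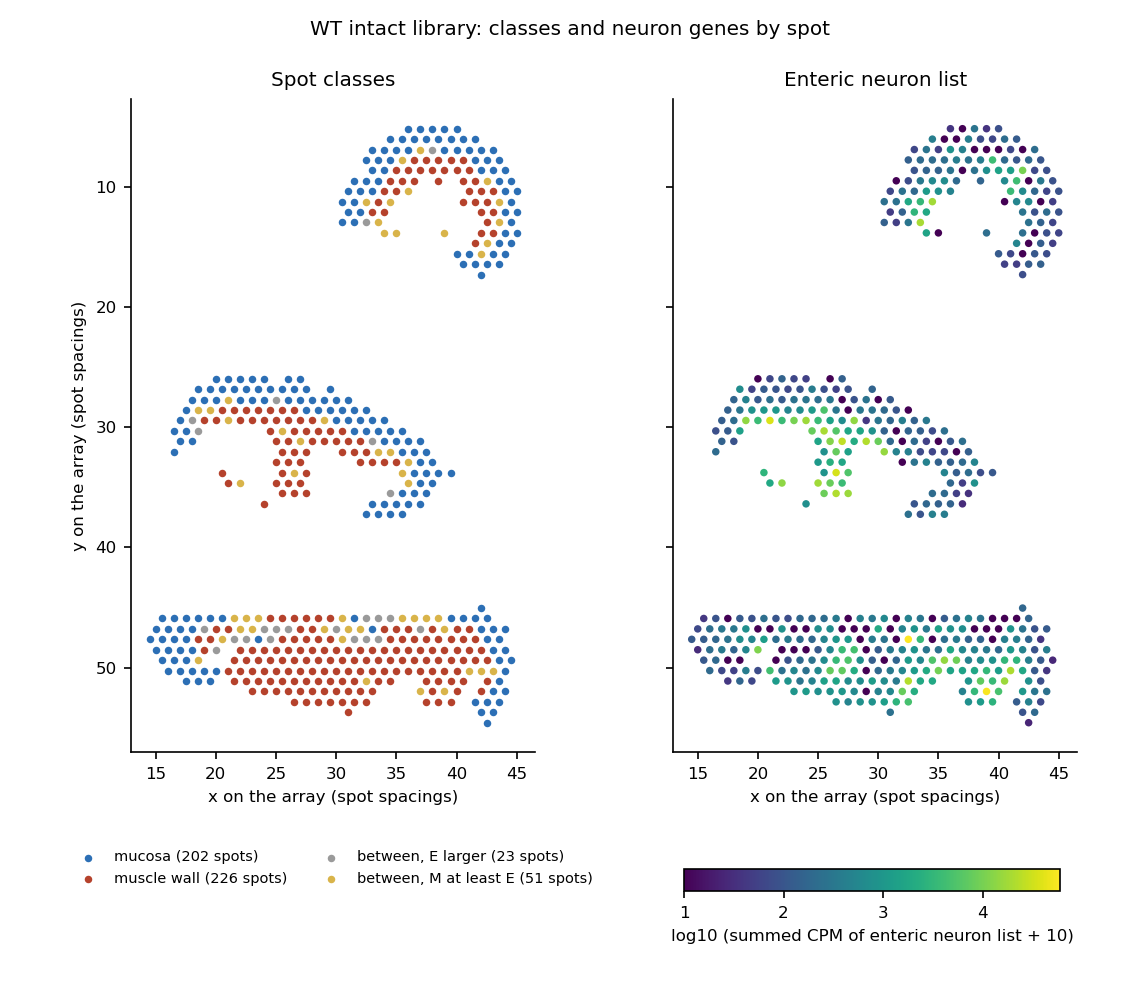
Spots of the WT intact library by position on the array, in spot spacings, coloured on the left by class and on the right by the log10 of the summed CPM of the enteric neuron list plus 10. The 226 muscle-wall spots lie beside the 202 mucosa spots in each of the 3 pieces, and the highest neuron values lie in patches of wall spots and of spots of neither class.

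The sums that made the classes differed by construction and are given as a description only. M took 4.10% of the UMIs of wall spots and 0.0784% of those of mucosa spots, and E took 0.890% and 1.67%. M thus parted the classes far more widely than E did, and epithelial transcripts were present in both. The M share ran from 2.01% to 8.32% over wall spots and from 0.00499% to 0.496% over mucosa spots. Of the spots nearest the limits, the 5 wall spots just inside had M at 2.01% to 2.11% and the 5 just outside at 1.94% to 1.99%. For mucosa the 5 spots just inside had 0.448% to 0.496% and the 5 just outside 0.554% to 0.643%. The 13 genes of the rule are left out of all that follows.

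Many genes differed between wall and mucosa, and the largest ratios were on the wall side. Of 9880 genes with at least 50 UMIs over both classes, 1323, or 13.4%, had a wall over mucosa ratio of at least 2, and 1303, or 13.2%, had a ratio of at most 0.5. These 2 shares are the background for each count of list members below. A ratio of at least 10 was reached by 265 genes of the wall, and a ratio of at most 0.1 by 13 genes of the mucosa. The rule held M below 0.5% in mucosa spots but set no such limit on E in wall spots. The 2 sides were thus not cut alike, and the part of the rule in this imbalance was not tested. Over all genes the median log2 ratio was -0.09. The 3 wall pieces all lay above the 3 mucosa pieces for 21.5% of genes and all below for 23.8%, and this held for 1244 of the genes higher in the wall and 1116 of those higher in mucosa. In spots, fewer cells of a type and less RNA per cell cannot be told apart.

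**Figure D2:**
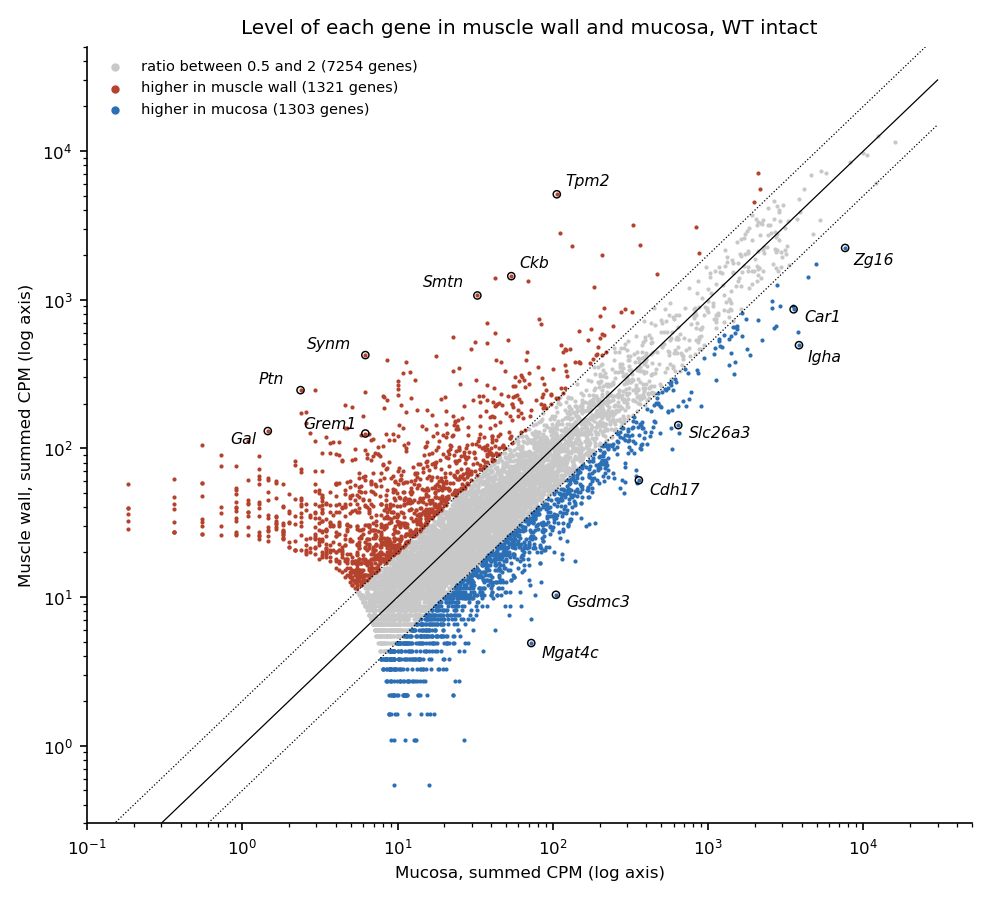
Summed CPM of each gene in muscle wall (vertical) and mucosa (horizontal), both on log axes, for the 9880 genes compared apart from 2 with no mucosa UMI. The solid line marks equal levels and the dotted lines a ratio of 2 either way, and points in the upper left, such as Ptn, Gal and Tpm2, lie farther from the solid line than those of the mucosa at the lower right.

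Among the genes with the largest ratios to the wall were many of smooth muscle and of nerve. Tpm2, the beta-tropomyosin of contractile filaments, had 5565, 4915 and 5106 CPM in the wall of pieces 1, 2 and 3 and 121, 83.6 and 122 in their mucosa, a ratio of 48.3 [44.4 to 52.6]. Every wall piece was far above every mucosa piece, and the wall pieces differed little among themselves. Synm, which encodes the intermediate-filament protein synemin, reached 423 CPM in the wall and 6.195 in mucosa, a ratio of 68.3 [48.5 to 99.4]. Smtn, the gene of the smooth-muscle protein smoothelin, had a ratio of 32.7 [28.03 to 38.3], Synpo2, which encodes an actin-bundling protein, of 46.1 [34.3 to 63.3], and Mylk, the kinase that triggers smooth-muscle contraction, of 33.2 [29.01 to 38.1]. In all 3 of these genes the 3 wall pieces stood above the mucosa pieces. Pcp4, a calmodulin regulator, had a ratio of 84.4 [51.4 to 149], with 134, 93.9 and 361 CPM in the wall of pieces 1, 2 and 3. Pcp4 was therefore less even than the contractile genes.

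Other wall genes outside the contractile set were as steep. Ptn, the gene of the heparin-binding growth factor pleiotrophin, had 309, 312 and 192 CPM in the wall of pieces 1, 2 and 3 and 2.96, 1.77 and 2.603 in mucosa, a ratio of 104 [60.1 to 196]. Psd, an exchange factor for an Arf GTPase, had a ratio of 68.5 [40.2 to 127], and Fxyd6, a regulator of the sodium-potassium pump, of 38.6 [27.2 to 56.5]. Bglap, the osteocalcin gene, had 29.1, 218 and 75.7 CPM in the wall pieces and 1.09 in mucosa, a ratio of 102 [46.1 to 281]. The mouse genome holds near-identical copies of Bglap, so its count is uncertain.

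The smooth-muscle list, 27 genes without those of the rule, was higher in the wall as a whole. All 26 members with at least 50 UMIs were higher in the wall, where 13.4% of all genes were, with a median log2 ratio of 4.21. Their sum was 28277 CPM in the wall, with pieces from 27260 to 28832, and 3234 in mucosa, with pieces from 3091 to 3388. Independent muscle markers thus went with the label of the wall. The sum was also even over spots, since the top 23 of the 226 wall spots held 17.8% of its UMIs. After each spot was thinned to 1000 UMIs, Tpm2 was found on 97.8% of 223 wall spots and 10.4% of 202 mucosa spots, and at full depth on 226 of 226 and on 81.7%.

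Smooth-muscle genes are classic targets of serum response factor, which binds the CArG box, an AT-rich stretch flanked by a pair of C and a pair of G bases. The box was sought, with no mismatch and an AT core, in the 250 bases before the annotated start of each gene in RefSeq promoter sequences of build GRCm38.p6, which matched 7862 of the 9880 genes by symbol. It was present for 30 of 996 wall genes, or 3.01%, for 26 of 996 mucosa genes, or 2.61%, and for 123 of all 7862, or 1.56%, beside 1.47% of all promoters in the table. The share was thus similar in both directions, and in both above that of all genes compared. The 7 muscle genes of the rule were not among the wall genes counted. The sequences below show the box, in capitals, in stretches of 60 bases from genes of the wall (Myl6, Vcl, Srf) and from the brush-border gene Vil1 of the mucosa. These 4 genes were picked for their box after their values were seen.
Myl6: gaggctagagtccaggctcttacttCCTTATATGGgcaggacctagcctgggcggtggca
Vcl: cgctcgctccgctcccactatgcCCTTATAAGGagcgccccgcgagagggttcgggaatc
Srf: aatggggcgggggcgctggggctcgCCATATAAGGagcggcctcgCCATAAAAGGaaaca
Vil1: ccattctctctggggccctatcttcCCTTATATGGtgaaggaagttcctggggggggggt
They lie at chr10:128493025-128493084, minus strand (Myl6), chr14:20929148-20929207, plus strand (Vcl), chr17:46556210-46556269, minus strand (Srf) and chr1:74409286-74409345, plus strand (Vil1), and the first box starts 50, 227, 82 and 73 bases before the start of transcription. The stretch from Srf holds 2 boxes. Myl6, the essential light chain of myosin, had a ratio of 3.35 [3.27 to 3.44], Vcl, the focal-adhesion gene vinculin, of 4.72 [4.104 to 5.43], and Srf itself of 2.59 [1.86 to 3.596], whereas Vil1 was 2.91 [2.52 to 3.38] times higher in mucosa.

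Calcium handling and electrical control followed the muscle. Of 19 members of the calcium and channel list with at least 50 UMIs, 17 were higher in the wall and none in mucosa, with a median log2 ratio of 3.25. Pln, which encodes phospholamban, the brake on the calcium pump of the reticulum, had 76.3, 88.5 and 68.8 CPM in the wall of pieces 1, 2 and 3 and 5 UMIs in all mucosa spots, a ratio of 83.6 [34.99 to 262]. Atp2b4, a calcium pump of the plasma membrane, had a ratio of 28.03 [20.5 to 39.2], Cacna1c, the pore of the L-type calcium channel, of 20.9 [11.4 to 42.1], and Jph2, which ties the reticulum to the surface membrane, of 14.9 [10.8 to 20.97]. The wall pieces lay above the mucosa pieces in all 4. Among receptors of the list, only Chrm2 and Npr2 passed the ratio of 2 with at least 50 UMIs. Chrm2, a muscarinic receptor for acetylcholine on gut muscle, had 116, 90.3 and 48.8 CPM in the wall pieces and 1.18, 1.77 and 0.651 in mucosa, a ratio of 56.8 [26.8 to 144]. Npr2, a receptor for C-type natriuretic peptide, had a ratio of 7.14 [4.32 to 12.2].

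Transcription factors of gut muscle and mesenchyme were also higher in the wall, though less uniformly. Of 15 with at least 50 UMIs, 10 were higher in the wall and 1 in mucosa. The homeobox genes Meis2 and Meis1 had the largest ratios of the list, at 39.3 [17.3 to 110.4] over 6 mucosa UMIs and 31.2 [14.4 to 80.2] over 7. Mef2c, a factor of muscle genes, had a ratio of 6.13 [3.46 to 11.2] and Tead1, a partner of the Hippo pathway co-activators, of 5.34 [3.87 to 7.43]. Mrtfb, a co-activator of serum response factor, went the other way, at 10.9 CPM in the wall and 22.6 in mucosa, 2.08 [1.29 to 3.52] times higher in mucosa with the pieces apart. With wall spots taken from an M of 1%, its log2 ratio was -0.63 in place of -1.05, short of a ratio of 2.

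Some forms of energy enzymes were far higher in the wall, while other forms of the same enzymes were present in both layers. Ckb, the brain-type creatine kinase that smooth muscle also uses, had 1163, 1282 and 1600 CPM in the wall pieces and 46.2, 49.5 and 68.98 in mucosa, a ratio of 26.7 [23.6 to 30.2]. Ckm, the muscle form, was rarer but as steep, at 171 and 2.37 CPM, a ratio of 72.4 [41.7 to 137]. Ckmt1, the mitochondrial form, was instead 2.91 [2.77 to 3.07] times higher in mucosa, with pieces of 734, 757 and 990.5 CPM in the wall and 2875, 2870 and 1809 in mucosa. All 3 creatine kinase genes had their pieces apart, and Ckmt1 was above Ckm in the wall too, at 884 CPM. Likewise the lactate dehydrogenase gene Ldhb had a ratio of 26.1 [16.9 to 42.1], while Ldha stood at 789 CPM in the wall and 1154 in mucosa, short of a ratio of 2. For the cytochrome oxidase subunit, Cox8b had a ratio of 15.2 [8.46 to 29.1], while Cox8a was near even, at 3017 and 3135 CPM with overlapping pieces. Ldha and Cox8a were set beside their partners after their values were seen. The respiratory genes Cox5a and Uqcrb were 2.69 [2.46 to 2.93] and 2.5 [2.34 to 2.67] times higher in mucosa. The energy list as a whole did not lean to the wall, with a median log2 ratio of -0.38. Of 28 members 5 were higher in the wall and 5 in mucosa, beside 13.4% and 13.2% of all genes.

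**Figure D3:**
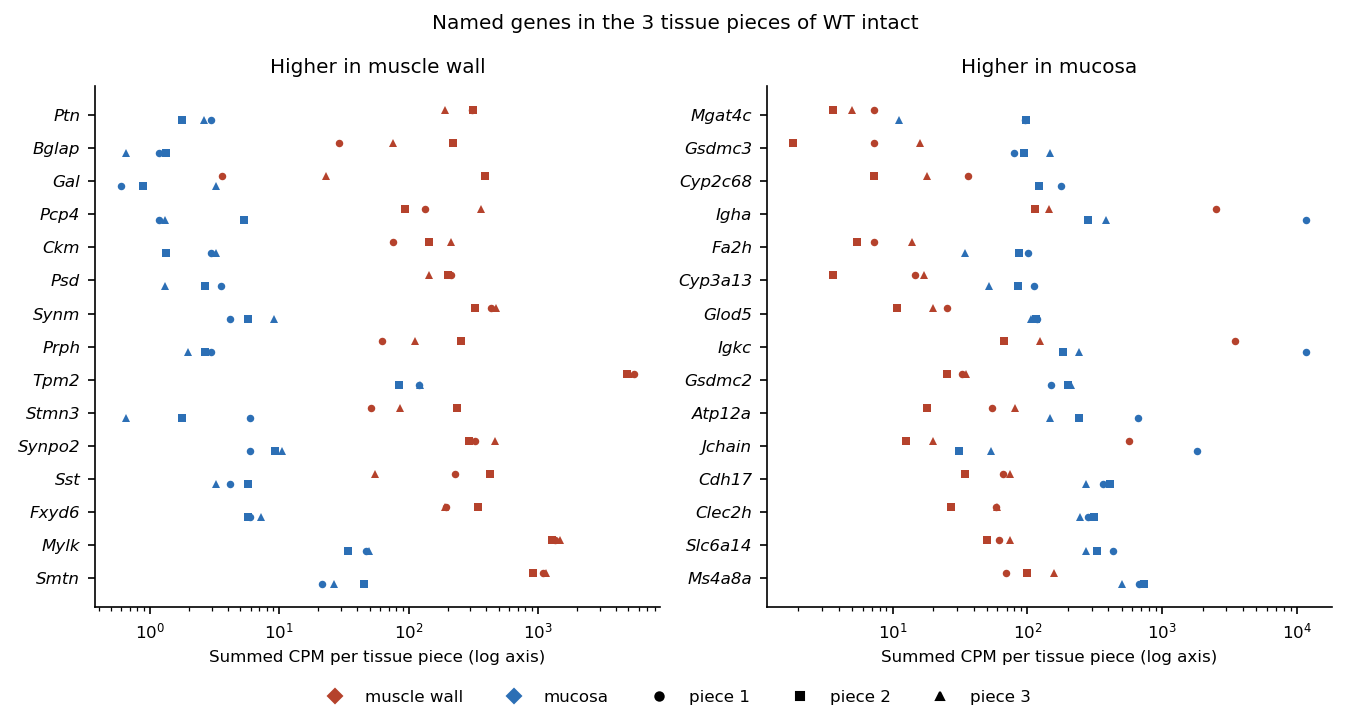
Summed CPM, on log axes, of the 15 genes named as highest in the wall and the 15 named as highest in mucosa, with 1 point per tissue piece (red, muscle wall; blue, mucosa). Tpm2, Mylk and Smtn lie close together over the wall pieces, whereas Gal spreads from 3.64 to 390 CPM, and the antibody genes Igha, Igkc and Jchain are highest in piece 1 in both classes.

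Enteric nerve genes parted the layers as sharply as muscle genes did. All 27 members with at least 50 UMIs were higher in the wall, with a median log2 ratio of 4.41, and their sum was 2640 CPM there and 169 in mucosa. Unlike muscle, the sum was uneven. It ran from 949 to 5031 CPM over the wall pieces, and the top 23 wall spots held 63.4% of its UMIs. Prph, the intermediate filament of peripheral neurons, had 61.8, 255 and 113 CPM in the wall of pieces 1, 2 and 3 and 2.96, 2.65 and 1.95 in mucosa, a ratio of 57.8 [33.9 to 107]. The neuronal stathmin gene Stmn3 had a ratio of 46.4 [27.6 to 84.2]. Nos1, which makes the nitric oxide that relaxes the muscle, had 71 UMIs in the wall and 0 in mucosa, at least 70.7-fold higher against 3 UMIs over the mucosa class. Nos1 lay at 7.27, 93.9 and 16.9 CPM in the wall pieces, so piece 2 carried most of it.

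The signal of neuropeptide genes lay in few spots. Gal, which encodes galanin, had 3.64, 390 and 22.9 CPM in the wall of pieces 1, 2 and 3 and 1.46 in mucosa, a ratio of 89.6 [44.8 to 209.9]. A single wall spot held 136 of its 240 wall UMIs, and without piece 2 the log2 ratio was 3.33 in place of 6.49. Cartpt, the CART peptide gene, had a ratio of 106 [35.5 to 525] over 3 mucosa UMIs. Sst, the gene of somatostatin, made by enteric neurons and by hormone cells of the epithelium, had 229, 429.8 and 54.8 CPM in the wall pieces and 4.14, 5.75 and 3.25 in mucosa, a ratio of 42.6 [28.4 to 66.8]. Here too 94.1% of the wall UMIs lay in the top 23 spots, and 1 spot held 114 of 357. Thinned to 1000 UMIs, Sst was found on 18 of 223 wall spots and on 1 of 202 mucosa spots.

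Glial and pacemaker genes were fewer and lower. Of 7 glial genes with at least 50 UMIs, 5 were higher in the wall, with a median log2 ratio of 3.38 over the 12 measured. S100b, a calcium-binding protein of glia, had a ratio of 23.9 [10.2 to 68.3], Scn7a, a sodium channel, of 9.15 [6.04 to 14.2], and Gpm6b, a membrane protein of glia and neurons, of 7.66 [4.66 to 13]. All 3 had their pieces apart. The list of ICC and of the Pdgfra-positive cells that transmit purine signals gave a mixed picture, with 6 of 8 members higher in the wall and 2 in mucosa, and its summed level was near even, at 489 and 455 CPM. Kit, the receptor that defines ICC, had 76.3, 50.6 and 30.9 CPM in the wall pieces and 17.8, 9.73 and 16.9 in mucosa, a ratio of 3.102 [2.24 to 4.29]. Etv1, a factor of ICC, had a ratio of 11.5 [7.32 to 18.6], and Kcnn3 and P2ry1, the potassium channel and purine receptor of the Pdgfra-positive cells, of 27.3 [12.5 to 70.6] and 4.45 [3.15 to 6.34]. Ano1, the chloride channel that drives ICC pacing, was 2.195 [1.83 to 2.65] times higher in mucosa, with 69.1, 70.4 and 78.7 CPM in the wall pieces and 157, 156 and 181 in the mucosa pieces, and Thbs4 was 2.06 [1.76 to 2.43] times higher there. Ano1 and Thbs4 thus did not follow Kit and Etv1, though with equal weight per spot the log2 ratio of Ano1 was -0.80 in place of -1.13.

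**Figure D4:**
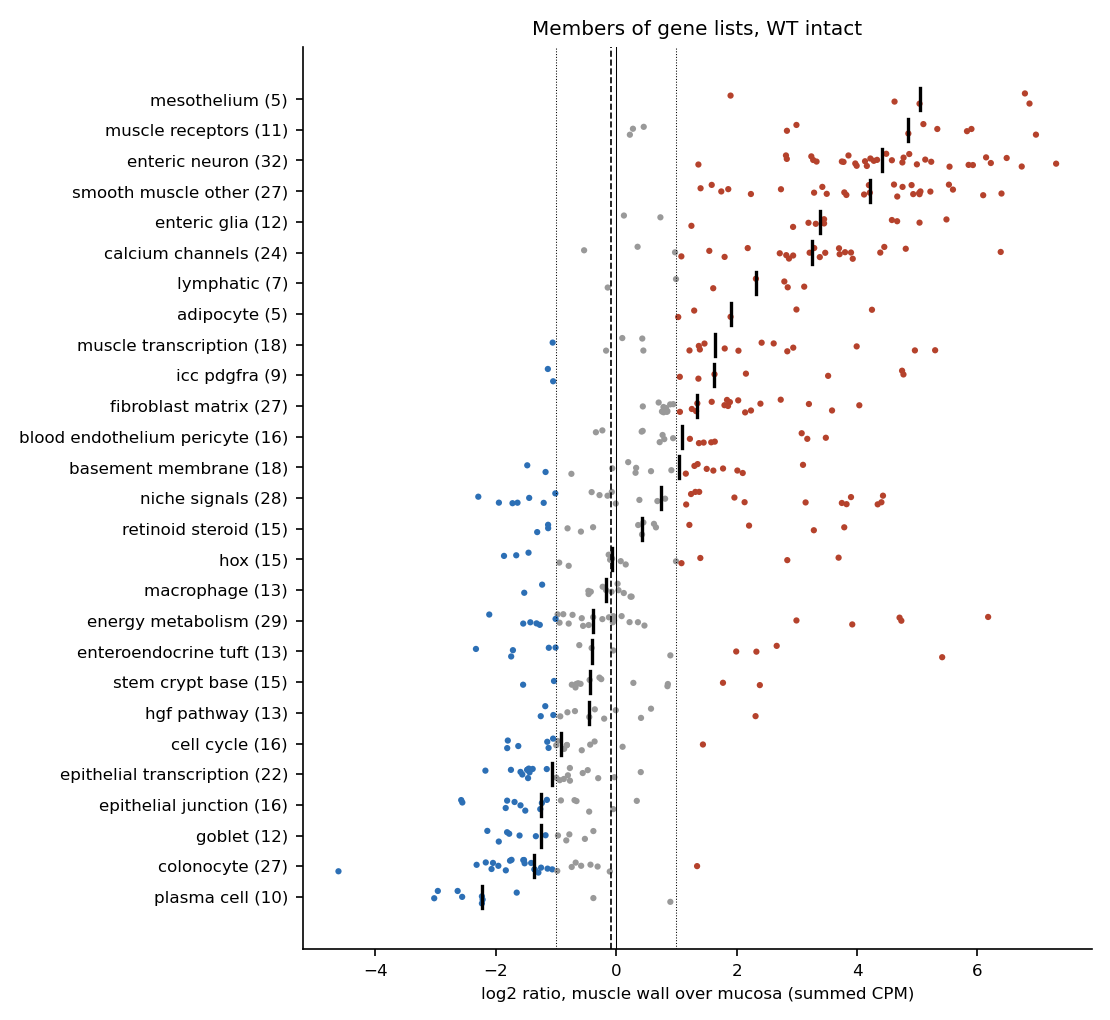
Log2 ratio of muscle wall over mucosa for the members of each gene list with at least 10 UMIs (number in brackets), 1 point per gene, with the list median as a bar. Dotted lines mark a ratio of 2 either way and the dashed line the median of all genes, -0.09, and the smooth-muscle and enteric neuron lists lie wholly to the right of the upper dotted line while the colonocyte and goblet lists lie mostly to the left of zero.

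Connective-tissue genes were higher in the wall, by smaller ratios. Of 27 fibroblast and matrix genes, 17 were higher in the wall and none in mucosa, with a median log2 ratio of 1.35. Fn1, the fibronectin gene, had 1123, 964 and 1385 CPM in the wall pieces and 170.4, 140.2 and 259.6 in mucosa, a ratio of 6.65 [6.17 to 7.17]. Mgp, an inhibitor of calcification in matrix, had a ratio of 9.195 [8.26 to 10.3], Mfap4, an elastic-fibre protein, of 12 [8.82 to 16.6], and Pi16, a marker of adventitial fibroblasts, of 16.4 [10.9 to 25.5]. Of 17 basement-membrane genes 9 were higher in the wall and 2 in mucosa, with a median log2 ratio of 1.04. Lamb2, a laminin chain of muscle and vessels, had a ratio of 8.59 [6.91 to 10.7], Nid1, which encodes nidogen, of 4.29 [3.35 to 5.51], and the collagen gene Col4a2 of 4.04 [3.47 to 4.698]. By contrast Lama3 and Lamb3, chains of the laminin under epithelia, were 2.78 [1.56 to 5.39] and 2.25 [1.74 to 2.96] times higher in mucosa, with pieces apart. Without piece 2 both were short of a ratio of 2, at log2 ratios of -0.99 and -0.75, and without piece 3 they stood at -4.11 and -2.02.

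Vessels and the outer lining were also richer in the wall. Of 15 blood-vessel and pericyte genes, 8 were higher in the wall, among them Rgs5 and Cspg4 of pericytes, with ratios of 9.03 [7.599 to 10.8] and 11.2 [7.46 to 17.2], and Cldn5 of the endothelial tight junction, with 8.46 [4.86 to 15.4]. In the lymphatic list 4 of 5 were higher in the wall, with Ccl21a, a chemokine of lymphatic endothelium, at 491, 415 and 205 CPM in the wall pieces and 20.7, 78.3 and 84.6 in mucosa, a ratio of 4.995 [4.36 to 5.73]. Msln, a marker of the mesothelium that covers the gut, had a ratio of 116 [31.2 to 979] over 2 mucosa UMIs, yet its wall pieces ran at 43.6, 116 and 0.996 CPM. Msln was thus nearly missing from the wall of piece 3, and without piece 2 its log2 ratio was 3.55 in place of 6.86. The fat-cell gene Cfd was as patchy, at 251, 1.81 and 0 CPM in the wall pieces.

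Signals that shape the crypt niche were split between the layers. Antagonists of bone morphogenetic protein (BMP) were higher in the wall. Grem1, made by fibroblasts and muscle beneath crypts, had 153, 110.2 and 128 CPM in the wall pieces and 5.92, 9.73 and 1.301 in mucosa, a ratio of 20.3 [14.1 to 30.01], and Chrdl1 had a ratio of 21.6 [13.1 to 37.5]. Sfrp1, a secreted antagonist of Wnt, had a ratio of 8.85 [6.89 to 11.5]. The BMP ligands Bmp2 and Bmp5 were instead 3.86 [2.698 to 5.68] and 3.11 [1.88 to 5.48] times higher in mucosa, with pieces apart for both. Areg, an EGF-family ligand, was 4.89 [2.002 to 15.5] times higher in mucosa and Hhip, a target and antagonist of hedgehog signals, 3.297 [1.86 to 6.36] times. Of 21 niche genes with at least 50 UMIs, 8 were higher in the wall and 7 in mucosa.

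On the mucosa side the steepest genes were metabolic enzymes and transporters of the epithelium and antibody genes. Mgat4c, which encodes a glycosyltransferase, had 7.27, 3.61 and 4.98 CPM in the wall of pieces 1, 2 and 3 and 95.2, 97.3 and 11.1 in mucosa, 14.8 [7.72 to 32.6] times higher in mucosa. The gasdermin genes Gsdmc3 and Gsdmc2 were 10.1 [6.42 to 16.9] and 5.95 [4.57 to 7.89] times higher, though reads may be shared among the close copies of this family. The cytochrome P450 genes Cyp2c68 and Cyp3a13 were 7.98 [5.61 to 11.8] and 6.697 [4.41 to 10.7] times higher, Fa2h, which makes hydroxylated sphingolipids, 7.44 [4.703 to 12.5] times, and the proton-potassium pump gene Atp12a 5.94 [4.89 to 7.29] times. Cdh17, the cadherin of intestinal epithelium, had 65.4, 34.3 and 74.7 CPM in the wall pieces and 366, 409.9 and 272 in mucosa, 5.87 [4.85 to 7.17] times higher. For each of these genes the mucosa pieces all stood above the wall pieces.

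Independent epithelial markers went with the label of the mucosa, by moderate ratios. Of 16 junction genes 10 were higher in mucosa, where 13.2% of all genes were, and none in the wall, with a median log2 ratio of -1.25. Their sum was 4736 CPM in mucosa and 2130 in the wall, where it ran from 1369 to 2713 over the pieces. Cdh1, which encodes E-cadherin, was 3.51 [3.05 to 4.04] times higher in mucosa, and Cgn, a scaffold of the tight junction, 5.95 [3.88 to 9.61] times. Among 21 epithelial transcription factors 11 were higher in mucosa and none in the wall. Hnf4a, a master regulator of enterocyte genes, had 87.2, 66.8 and 142 CPM in the wall pieces and 316, 308 and 278 in mucosa, 2.71 [2.34 to 3.15] times higher, and Atoh1, which sets the secretory fate, was 4.503 [2.86 to 7.49] times higher. The ratio of the sums, wall over mucosa, was thus 0.4499, and the part of this epithelial RNA in the other ratios was not tested.

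The binding motif of HNF4, searched on both strands as CAAAGTCCA, CAAAGTTCA and CAAAGGTCA, was present in the 250 bases before the start of 28 of 996 mucosa genes, or 2.81%, of 8 of 996 wall genes, or 0.803%, and of 93 of 7862 genes in all, or 1.18%, beside 1.14% of all promoters. Among the mucosa genes with the motif was also the antibody gene Jchain, which is not shown. The stretches below show it, in capitals, before Slc26a3 and Cyp2c68, both higher in mucosa and picked after their values were seen.
Slc26a3: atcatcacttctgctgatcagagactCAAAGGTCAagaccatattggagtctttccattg
Cyp2c68: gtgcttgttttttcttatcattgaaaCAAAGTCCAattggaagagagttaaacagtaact
They lie at chr12:31438057-31438116, plus strand (Slc26a3) and chr19:39741145-39741204, minus strand (Cyp2c68) in GRCm38.p6, and the motif starts 136 and 77 bases before the start of transcription.

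Most of the colonocyte and goblet genes measured were higher in mucosa. Of 27 colonocyte genes 19 were higher in mucosa and 1 in the wall. Slc26a3, the chloride-bicarbonate exchanger of the colon, had 83.6, 48.8 and 211 CPM in the wall of pieces 1, 2 and 3 and 998, 515 and 436 in mucosa, 4.48 [3.96 to 5.102] times higher. Car1, a carbonic anhydrase, was 4.12 [3.92 to 4.34] times higher and Slc20a1, a phosphate transporter, 4.98 [4.06 to 6.17] times. Slc9a3, the sodium-proton exchanger of the brush border, was 24.4 [6.65 to 204] times higher over 2 wall UMIs, but had 43.2, 31.8 and 0.651 CPM in the mucosa of pieces 1, 2 and 3, so that piece 3 nearly lacked it and the pieces of the classes overlapped. Of 12 goblet genes 7 were higher in mucosa and none in the wall. Agr2, a disulfide isomerase that folds mucin, was 4.41 [4.096 to 4.74] times higher, Clca1, a secreted mucus protease, 3.86 [3.599 to 4.15] times, Zg16, a lectin of the mucus, 3.42 [3.32 to 3.54] times and Fcgbp, a mucus protein, 2.52 [2.36 to 2.69] times.

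Genes of the crypt base and of division were closer to even, and those of hormone and chemosensory cells went both ways. Among 16 cell-cycle genes 6 were higher in mucosa and 1 in the wall. Mki67, a marker of dividing cells, had 14.5, 23.5 and 13.95 CPM in the wall pieces and 31.95, 88.4 and 52.7 in mucosa, 3.505 [2.44 to 5.21] times higher, and Birc5 and Cenpa, of the mitotic apparatus, were 3.08 [2.24 to 4.35] and 3.48 [2.36 to 5.33] times higher with overlapping pieces. With mucosa limited to spots with E of at least 1%, the log2 ratio of Mki67 moved from -1.81 to -0.90 and that of Birc5 from -1.63 to -0.92. Tubb5, a tubulin that neurons also express, was the exception, with a ratio of 2.72 [2.497 to 2.95]. Of 12 crypt-base genes 2 were higher in mucosa and 1 in the wall, beside 13.2% and 13.4% of all genes. Kcne3, a potassium-channel subunit of crypt cells, was 2.92 [2.45 to 3.499] times higher in mucosa, and Smoc2, a matrix protein that stem cells and stroma express, had a ratio of 3.42 [2.63 to 4.46] to the wall. Pyy, the hormone gene of L cells, was 2.17 [1.97 to 2.39] times higher in mucosa, but its mucosa pieces ran at 172, 1107 and 237 CPM, and without piece 2 the log2 ratio was -0.09. Of the same list, Sst was higher in the wall, as given above, and so was Dclk1, at a log2 ratio of 2.33.

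Of 8 plasma-cell genes with at least 50 UMIs, 6 were higher in mucosa and none in the wall. The antibody genes were very uneven over the pieces. Igha, the heavy chain of IgA, had 11759, 279.9 and 382 CPM in the mucosa of pieces 1, 2 and 3 and 2533, 114 and 146 in their wall, 7.79 [7.29 to 8.33] times higher in mucosa over all. Igkc and Jchain, of the light chain and the joining chain, were 6.198 [5.84 to 6.59] and 5.88 [5.07 to 6.87] times higher. Piece 1 held most of this signal in both layers, and its wall stood above the mucosa of the other pieces. Without it the log2 ratios of Igha, Igkc and Jchain were -1.26, -1.01 and -1.21, and the mucosa still led. Ighm, the heavy chain of IgM, leaned the other way, at a log2 ratio of 0.90 to the wall, short of a ratio of 2. Macrophage genes were even by comparison, with 1 of 10 higher in mucosa, none in the wall and a median log2 ratio of -0.17. Over all genes 13.2% were higher in mucosa and 13.4% in the wall. Lyz2, the lysozyme of macrophages, had 229 CPM in the wall and 267 in mucosa, and the complement gene C1qa 123 and 104, both with overlapping pieces. Ms4a7 was the 1 macrophage gene past the ratio of 2, 2.88 [1.68 to 5.29] times higher in mucosa. Lymphocyte genes were too rare to compare, with no B- or T-cell gene at 50 UMIs. Ly6g was 2.78 [2.44 to 3.19] times higher in mucosa, but the neutrophil genes S100a8 and S100a9 had 2 and 3 wall UMIs and none in mucosa. Both lie outside the naming rule, short of its 50 UMIs.

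In the pathway of hepatocyte growth factor, the subject of the series, 3 of 11 genes with at least 50 UMIs were higher in mucosa and 1 in the wall, beside 13.2% and 13.4% of all genes, with a median log2 ratio of -0.45. Hgfac itself had 39.98, 65.01 and 49.8 CPM in the wall pieces and 89.9, 90.2 and 77.4 in mucosa, 1.61 [1.29 to 2.02] times higher in mucosa and short of the ratio of 2, with every mucosa piece above every wall piece. Hgf, the ligand, had 6 and 12 UMIs, too few to place. Met, its receptor, was 2.06 [1.36 to 3.25] times higher in mucosa and Mst1r, the receptor of macrophage-stimulating protein, 2.38 [1.58 to 3.74] times. Spint1 and Spint2, inhibitors of the activating proteases, were 2.26 [1.92 to 2.67] and 1.902 [1.77 to 2.04] times higher, and the protease gene St14 1.75 [1.46 to 2.11] times. Pieces were apart for all 5. Plat, tissue plasminogen activator, was the only member past the ratio of 2 on the wall side, at 4.98 [3.02 to 8.34]. Prss8, a protease of epithelial surfaces, was even at 32.6 and 32.8 CPM, and Gab1, an adaptor of Met, had a ratio of 1.33 [0.856 to 2.03]. Hpn, Plaur and Plau had values of 1.36 [0.75 to 2.65], 1.28 [0.647 to 2.75] and 1.15 [0.4799 to 3.16] for mucosa over wall, Mst1 had 5 UMIs in all and Serpina5 none. Without piece 2 the log2 ratios of Met and Spint1 were -0.79 and -0.87, short of a ratio of 2.

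Of 10 Hox genes with at least 50 UMIs, 3 were higher in mucosa and 1 in the wall, beside 13.2% and 13.4% of all genes. Their median log2 ratio was -0.07. The posterior homeobox genes Hoxa13 and Hoxa7 were 3.16 [2.01 to 5.21] and 2.74 [1.63 to 4.94] times higher in mucosa, and Hoxb13, the most abundant of the list, stood at 236, 222 and 539 CPM in the wall pieces and 643, 604 and 862 in mucosa. Hoxd12 had a ratio of 2.12 [1.25 to 3.57] to the wall with overlapping pieces, and its log2 ratio of 1.08 was 0.72 without piece 1 and 0.79 without piece 2. Nr3c2, the mineralocorticoid receptor, and Hsd11b2, the enzyme that shields it from glucocorticoid, were 2.19 [1.62 to 3.02] and 2.48 [2.19 to 2.82] times higher in mucosa, whereas Nr3c1, the glucocorticoid receptor, had 56.6 CPM in the wall and 41.4 in mucosa, a ratio of 1.37 [1.07 to 1.73].

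Values across the wall were not flat. Wall spots were banded by their distance, in steps between neighbouring spots, from the nearest mucosa spot of their piece, with 44, 59, 71 and 49 spots at 1, 2, 3 to 4 and 5 or more steps, the last band from pieces 2 and 3 only. The bands differed in make-up, with piece 3 holding 15 of 44 spots at 1 step and 59 of 71 at 3 to 4, so values within pieces are given beside the pooled ones. The smooth-muscle sum was 22397, 27786, 30887 and 33368 CPM over these bands. It was lowest at 1 step in each piece, with 24433, 20716 and 22748 CPM there and 31717, 26459 and 26770 at 2 steps in pieces 1, 2 and 3. Sox9, a factor of crypt cells, ran the other way, at 36.5, 11.6, 5.81 and 5.997 CPM, and was highest at 1 step in each piece, on 28 UMIs in all. Kcne3 stood at 131, 63.8, 52.3 and 59.97 CPM and was also highest at 1 step in each piece, at 118, 124 and 154. The lymphatic gene Ccl21a stood at 626, 261, 141 and 216 CPM in the pooled bands. In each piece Ccl21a was lower at 2 steps than at 1. Only in piece 3 did it stay low farther out, at 860, 205.1, 63.5 and 86.6 CPM over the bands. Piece 1 had 522, 429 and 640 CPM over its bands, and piece 2 had 533, 216, 466 and 561. Each band of pieces 1 and 2 held fewer than 20 spots.

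Epithelial RNA within the wall differed between piece 3 and the other pieces. The pooled junction list stood at 2025, 2108, 2452 and 1799 CPM at 1, 2, 3 to 4 and 5 or more steps, the goblet list at 9759, 9252, 8851 and 7874, and the epithelial transcription factors at 1543, 1132, 1249 and 771. In pieces 1 and 2 the junction list was lower away from the mucosa, at 1706, 1397 and 984.5 CPM in piece 1 and 1863, 1318 and 635 in piece 2 over the first 3 bands, with 1000 in the last band of piece 2. In piece 3 it stood at 2573, 3316, 2826 and 2099 CPM over the 4 bands, above the other pieces in each. Lypd8, a gene of surface colonocytes chosen after its values were seen, had 2392, 2270 and 9245 CPM in the wall of pieces 1, 2 and 3, and in piece 3 ran at 8235, 11419, 9888 and 6890 over the bands. Without piece 3 the median log2 ratio of the junction list was -2.02 in place of -1.25, and that of the colonocyte list -2.37 in place of -1.36.

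**Figure D5:**
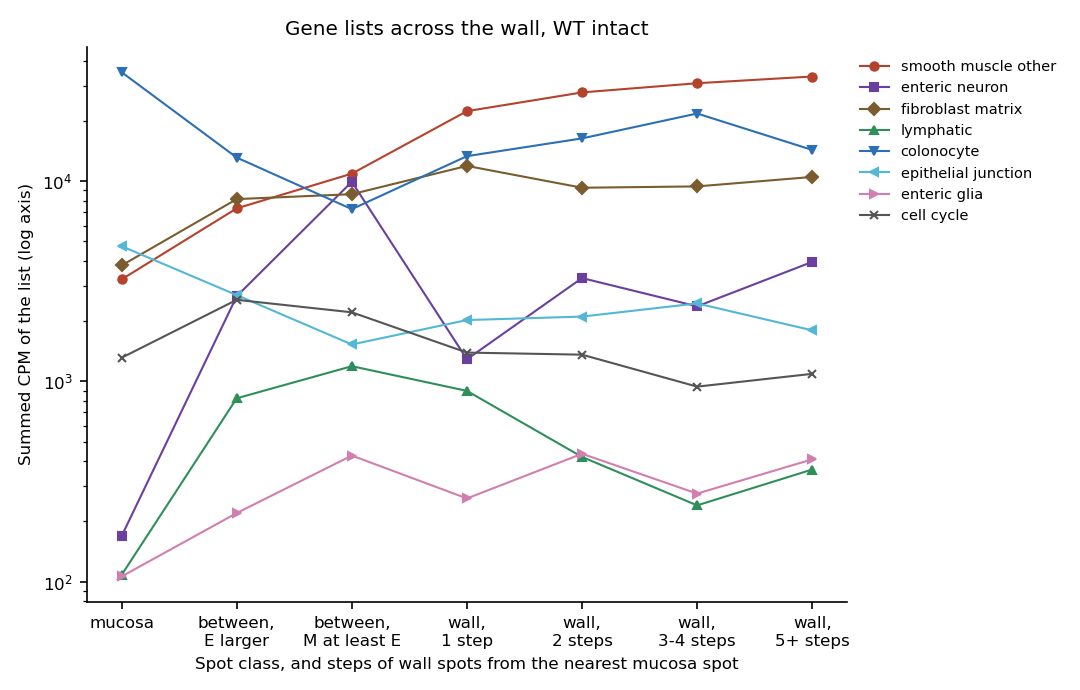
Summed CPM, on a log axis, of 8 gene lists in mucosa spots, in the 23 and 51 spots between the classes and in wall spots by steps from the nearest mucosa spot. The between spots are set by their M share and the wall bands by distance, so the horizontal axis is not a single path through the tissue. The smooth-muscle sum increases from left to right, the enteric neuron sum is highest in the between spots with M at or above E, and the colonocyte sum is lowest there.

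The highest summed neuron level was in the 51 spots of neither class with M at or above E. It was 9941 CPM there, against 2640 in the wall class and 169 in mucosa. These spots were set apart by their M share and not by place. Those highest in neuron RNA, at 54641, 37204 and 34504 CPM, lay 3, 2 and 6 steps from the nearest mucosa spot. Neuron UMIs count in the total that M is measured against, so the rule can leave neuron-rich spots out of the wall class. How far it did was not tested. The neuron sum lay in few spots, since 10 of the 51 held 98.1% of its UMIs. The median spot was at 262 CPM, below the 695 of wall spots. The 23 spots with E the larger stood at 2664 CPM, near the wall, with 70.5% of the UMIs in 1 spot. Vip, the peptide of secretomotor and relaxing neurons, stood at 2890 CPM in the 51 spots, 330.3 in the wall and 22.8 in mucosa, and Gal at 378. Vip was chosen after its values were seen. The lymphatic sum was 1191 CPM in the 51 spots and 479 in the wall, with medians of 709 and 186 CPM per spot. The smooth-muscle sum, at 10914, lay between the classes.

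The same classes could be cut in the wound libraries, which the rule as used here did not draw on. In WT wound 176 of 640 spots were wall and 355 mucosa, and in KO wound 89 of 572 and 388. Of the genes higher in the intact wall with at least 50 UMIs in the other library, 1077 of 1275 also reached a ratio of 2 in the WT library, where 14.7% of all genes did, and 1000 of 1191 in the KO library, where 15.5% did. On the other side of 1 lay 10 and 15. For genes higher in intact mucosa the counts were 883 of 1288 and 911 of 1277, against 13.4% and 17.0% of all genes, with 45 and 79 on the other side of 1. Muscle genes had ratios of the same order, with Tpm2 at 37.1 (WT wound) and 38.96 (KO wound), Synm at 43.8 and 52.4 and Chrm2 at 53.6 and 64.4. Slc26a3 stood at wall over mucosa ratios of 0.129 and 0.0708, and Ano1, at 0.529 and 0.542, was again higher in mucosa. The wall classes differed in epithelial RNA, since E took 0.890% of wall UMIs in the intact library, 0.696% in WT wound and 0.319% in KO wound. Its part in the ratios of Slc26a3 was not tested. Sst stood apart, with wall and mucosa at 4.2 and 6.12 CPM in the WT wound library and 12.6 and 9.95 in the KO one, where the intact wall had 194. Wound tissue differs from intact tissue in more than its layers, and no difference between libraries was tested.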

How the data were processed

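Visium libraries of mouse distal colon were used as deposited. The files hold counts of UMIs per gene and spot, made by Space Ranger 1.2.1 per the file headers, with the reads placed on mm10 per the submitters' processing notes; the sources used here name no aligner settings and no annotation release. Each of the 3 groups is 1 library, and capture area and group cannot be told apart. Spots under tissue in the deposited matrices were all kept.

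UMIs were summed over the spots of each class and given as CPM. A gene with at least 50 UMIs over both classes was called higher in the wall from a ratio of 2 up and higher in mucosa from 0.5 down. Single-gene intervals at 95% were exact conditional binomial, from scipy 1.17.1. A gene with no UMI in a class was given a bound from 3 counts. List medians used members with at least 10 UMIs. Pieces were connected groups of at least 20 spots. No doublet caller was run on spots. The ratio step was tested on simulated data. Other tools were Python 3.11.15, numpy 2.4.6, pandas 2.3.3, matplotlib 3.10.9 and, for TMM factors only, edgeR 4.0.16 in R 4.3.3. Totals were 1837664 UMIs in the wall and 5488427 in mucosa.

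Genes were ranked in either direction by whichever interval bound lay closer to 1. Named were the first 15 among those with 200 UMIs or more, the first 4 of each of 30 lists among those with 50 or more, and all genes of the growth factor pathway, without mitochondrial, ribosomal, immunoglobulin variable and unnamed genes. Some genes that the rule names are not reported here. A selection is given, and genes outside the rule are said to be so where they stand. The spot rule, its members, the lists and the tests were chosen with earlier results of these data known. Promoter sequences were those of RefSeq on GRCm38.p6, matched by symbol. The alternatives were other limits on M and E, other totals and scaling, thinning to 1000 UMIs, other minimum counts and leaving out each piece. The wound libraries entered only as ratios set side by side.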

Additional observations from a re-analysis of the deposited data

Results flagged for a closer look

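Each of the following genes passed a ratio of 2 in the intact library and lay on the other side of 1 in a wound library. No difference between libraries was tested.

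Sst had a wall over mucosa ratio of 42.65 in the intact library and 0.686 [0.281 to 1.46] in WT wound, at 4.2 and 6.12 CPM. Cenpa, of the mitotic centromere, went from 0.287 to 1.25 in WT wound and 1.65 in KO wound. Mki67 and Birc5 were also lower in the wall of intact colon, at 0.285 and 0.324, and stood at 1.35 [0.993 to 1.81] and 1.18 [0.842 to 1.62] in KO wound. These 3 genes, of a cell-cycle list of 16, stand here because their ratios crossed 1. Cenpa did so in both wound libraries, and Mki67 and Birc5 in KO wound only. Ms4a7 was at 0.347 in the intact library and 3.22 [2.45 to 4.20] in KO wound, with 81.3 CPM in the wall and 25.2 in mucosa. Fabp4, the fatty-acid binding protein of fat cells and vessels, was at 2.04 and then 0.533 [0.372 to 0.742] in KO wound. Hoxd12 was at 2.12 and then 0.923 [0.443 to 1.74] in KO wound. The intervals of Sst, Mki67, Birc5 and Hoxd12, and that of Cenpa in WT wound, include 1.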

How the results depend on the processing

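The genes called higher numbered 1323 for the wall and 1303 for mucosa. With wall spots of M at 5% or more, 2237 were higher in mucosa, and the wall share of calls was 31.6% in place of 50.4%. With spots thinned to 1000 UMIs, 1176 genes could be compared, and 146 were higher in the wall and 186 in mucosa. With a minimum of 20 UMIs 2047 were higher in the wall, and with a minimum of 200 UMIs 420 were higher in the wall and 714 in mucosa, or 37.0% for the wall. Fewer or more genes were compared in these last 3 settings. Leaving out each piece in turn gave 896 to 1183 genes for the wall and 1027 to 1364 for mucosa. The median log2 ratio of the B-cell list, with no gene at 50 UMIs, turned to 0.74 with wall spots from an M of 1% and to 0.96 from 5%, and that of the T-cell list to 1.21 from 5%; the cause was not tested.

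No named gene past a ratio of 2 turned direction under the 14 alternatives that give a gene its own value; the 2 other minimum counts cannot move a ratio. Of 133 such genes with alternatives, 108 stayed past the ratio of 2 in each alternative that gave a value. The other 25 missed it in at least 1, among them Ano1, Birc5, Eng, Fabp4, Fcgbp, Gcg, Hoxa13, Hoxd12, Lama3, Lamb3, Ly6g, Met, Mki67, Mrtfb, Nr3c2, Pyy, Rbp4, Scd1, Scgn, Smoc2, Sox9, Spint1, Thbs4 and Tph1. TMM factors moved the median of all genes by -0.06 on the log2 scale. No paired analysis was possible because the groups have 1 library each; within the intact library, wall and mucosa of a piece stand side by side in the text, but no label ties a piece to an animal. Depth limits the wall, where 3 counts stand for 1.63 CPM, more than mucosa, where they stand for 0.547 CPM.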

Other observations

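Hormone and chemosensory genes were divided and rested on few places. Of 9 genes with at least 50 UMIs, 3 were higher in the wall and 3 in mucosa, beside 13.4% and 13.2% of all genes. Scgn, which encodes the calcium-binding protein secretagogin of endocrine cells and neurons, had 25.4, 72.2 and 4.98 CPM in the wall of pieces 1, 2 and 3 and 12.4, 4.42 and 5.21 in mucosa. Its ratio was 3.98 [2.58 to 6.195], and without piece 2 the log2 ratio was 0.06 in place of 1.99. Tph1, the enzyme of serotonin synthesis in enterochromaffin cells, was 3.28 [1.32 to 10.6] times higher in mucosa, and Gcg, the proglucagon gene of L cells, 2.01 [1.34 to 3.11] times. With wall spots of M at 5% or more, the log2 ratio of Tph1 was -0.16 in place of -1.71.

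Fat-cell genes were uneven over the pieces. Scd1, a desaturase of fatty acids, had 109, 57.8 and 34.9 CPM in the wall of pieces 1, 2 and 3 and 23.1, 18.1 and 24.7 in mucosa, and Fabp4 had 109, 45.1 and 114 and 56.8, 41.1 and 37.7. Eng, a co-receptor for TGF-beta ligands on endothelium, had a ratio of 3.11 [2.32 to 4.17]. In the retinoid list Rbp4, the carrier of retinol in plasma, was 2.19 [1.21 to 4.28] times higher in mucosa.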
